A study of Mus musculus with 23 samples.

Results

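Hox genes are the homeobox genes of the HoxA, HoxB, HoxC and HoxD clusters, and all 39 protein-coding genes of the mouse whose symbol is Hoxa, Hoxb, Hoxc or Hoxd followed by a number were taken from the 50123 genes of the deposited count table. They were chosen by name, without use of their values. Expression was measured by RNA-seq of thymic epithelial cells (TECs) of fetal C57BL/6 mice, in 23 libraries of 100 sorted cells each. Control and *Rbpj* cKO cells gave 3 libraries each at E12.5 (PLET1+) and, at E14.5, for PLET1+ and for PLET1- cells, and NICD cells gave 5 at E14.5 (PLET1+). PLET1 is a surface protein of early thymic epithelial progenitors. Control mice are labelled wild type and were littermates of the cKO. In the cKO (*Foxn1Cre*;*Rbpj* FL/FL) a Cre recombinase driven by the TEC gene *Foxn1* deletes *Rbpj*, which encodes the DNA-binding partner of Notch. The same Cre switches on the active intracellular domain of Notch from the *Rosa26* locus in NICD mice (*Foxn1Cre*;*Rosa26* FL-STOP-FL-NICD-IRES-EGFP). Both alleles therefore act only after *Foxn1* has come on. NICD cells were sorted in another laboratory (Lausanne, the others in Edinburgh) and form a batch of their own, so genotype, laboratory and batch cannot be told apart for NICD. E12.5 and E14.5 libraries also belong to different batches. By the study's account, cKO and control cells of each stage came from 2 litters taken on different days, and NICD cells from 5 embryos of a single litter, so NICD and litter cannot be told apart either. P-values measure the spread between these libraries, some of which share a litter.

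Hox genes encode homeodomain transcription factors that give cells a position along the head-to-tail axis. Within a cluster, genes of low number (anterior) are used further forward and earlier than genes of high number (posterior), and genes of the same number in different clusters are paralogs. The thymus and parathyroid arise from the third pharyngeal pouch, a level at which anterior Hox genes are used, and *Hoxa3* is required for both organs to form. Hox proteins bind DNA with PBX and MEIS cofactors, retinoic acid induces anterior Hox genes, and Polycomb proteins keep unused Hox genes silent.

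Libraries held 20053241 to 92699969 counts, and the NICD libraries, with at least 63587152, were among the deepest. Values are given as normalized CPM, counts divided by library size after correction by TMM factors. All 7 thymic epithelial markers examined (*Epcam*, *Krt8*, *Krt18*, *Cdh1*, *Foxn1*, *Pax9* and *Plet1*) had counts in every group, with a summed level of 2700 to 11000 CPM. *Rbpj* itself ranged from 9.5 to 37.9 CPM in the 9 control libraries, from 0.061 to 16.2 CPM in the 9 libraries labelled *Rbpj* cKO and from 5.27 to 24.7 CPM in the 5 NICD libraries, so the control and cKO ranges overlapped. These counts cover all exons of *Rbpj*, deleted or not. Library 3 of the E12.5 controls stood apart in the summed level of genes of the neighbouring parathyroid. The sum of 4 such genes (*Gcm2*, *Pth*, *Casr* and *Chga*) was 9090 CPM there and 0.273 to 1580 CPM in the other libraries. Most of it was *Pth* (8670 CPM, at most 1490 CPM elsewhere). *Gcm2* did not stand apart, at 63.8 CPM there and up to 62.3 CPM elsewhere. *Nkx2-1*, a regulator of thyroid and lung (14.2 CPM, at most 0.0552 CPM elsewhere), and the hormone gene *Sst* (138 CPM, at most 0.786 CPM elsewhere), both chosen after their values were seen, were highest in it too. Its sum of the 7 thymic epithelial markers was 4166 CPM, within the range of the other libraries. Some Hox results that rest on this library are given with and without it, where the text says so. The fits and group means include it unless stated.

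Sequence upstream of the Hox gene starts was read from the RefSeq promoter windows of GRCm38.p6, of which 24 windows matched 22 of the 39 genes. Genes without a window included *Hoxa4*, *Hoxb2*, *Hoxb3*, *Hoxb5*, *Hoxb6*, *Hoxb7*, *Hoxb9*, *Hoxb13*, *Hoxc5*, *Hoxc6*, *Hoxc8*, *Hoxc9*, *Hoxc10*, *Hoxc11*, *Hoxc12* and *Hoxc13*. The 250 bases before the start are shown for *Hoxa2*, the one Hox gene with at least 10 counts in every library (chr6:52164832-52165081, minus strand), and for *Hoxa5* (chr6:52204588-52204837, minus strand) and *Hoxb1* (chr11:96365508-96365757, plus strand), for which most counts came from a single library. They run 5′ to 3′ on the strand of the gene, and capitals mark every match to the core motifs TGGGAA (RBPJ), TGACAG (MEIS) or TGATNNAT (PBX with a Hox protein) on either strand.
Hoxa2: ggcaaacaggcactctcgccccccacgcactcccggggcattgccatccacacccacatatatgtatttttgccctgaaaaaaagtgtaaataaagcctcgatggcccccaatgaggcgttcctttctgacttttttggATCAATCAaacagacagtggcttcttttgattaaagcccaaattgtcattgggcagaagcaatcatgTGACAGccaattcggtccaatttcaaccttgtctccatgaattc
Hoxa5: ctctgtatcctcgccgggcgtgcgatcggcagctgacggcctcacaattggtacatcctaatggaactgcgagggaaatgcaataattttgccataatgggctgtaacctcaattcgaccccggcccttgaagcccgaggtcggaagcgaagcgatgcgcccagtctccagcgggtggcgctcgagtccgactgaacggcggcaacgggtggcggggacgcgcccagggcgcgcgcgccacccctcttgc
Hoxb1: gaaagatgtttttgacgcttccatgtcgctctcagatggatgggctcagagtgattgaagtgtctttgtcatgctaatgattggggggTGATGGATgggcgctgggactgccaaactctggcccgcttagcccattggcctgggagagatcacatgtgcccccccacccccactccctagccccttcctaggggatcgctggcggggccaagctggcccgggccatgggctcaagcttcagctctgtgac
The *Hoxa2* window held a MEIS motif that began 44 bases before the start and, on the opposite strand, a PBX-HOX motif that began 111 bases before it. The *Hoxb1* window held a PBX-HOX motif at 162 bases, and the *Hoxa5* window held none of these letters. GC content was 46.4% for *Hoxa2*, 59.2% for *Hoxb1* and 63.6% for *Hoxa5*. Of the 24 Hox windows, 4 held the RBPJ motif (*Hoxa6*, *Hoxa9*, *Hoxa13* and *Hoxd3*), 2 the MEIS motif (*Hoxa2* and *Hoxa3*) and 4 the PBX-HOX motif (*Hoxa2*, *Hoxb1*, *Hoxb8* and *Hoxd11*). Over all 32851 windows of the same length the shares were 21.6%, 15.9% and 7.68%. A match is a run of letters and not a bound site.

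Most Hox counts of these cells fell on the HoxA cluster, and most fell on anterior genes. *Hoxa2* alone made up 66.5% of the 45171 counts on Hox genes, and 71.7% without library 3 of the E12.5 controls. The make-up differed between libraries, with 637 HoxA and 517 HoxB counts in NICD library 5. Of the 39 genes, 13 had no count in any library, 9 had counts but never more than 6 in a library, and 17 reached 10 counts somewhere. Without library 3 of the E12.5 controls, 14 reached 10 counts. *Hoxa2* was the only one with at least 10 counts in all 23 libraries, and 7 genes reached 10 counts in 9 or more libraries. In bulk samples of sorted cells, fewer cells that express a gene and less RNA per cell cannot be told apart.

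By cluster, 7 of 11 HoxA genes, 7 of 10 HoxB genes, 2 of 9 HoxC genes and 1 of 9 HoxD genes reached 10 counts in some library. HoxA genes took 91% of the Hox counts, HoxB genes 7.19%, HoxC genes 1.7% and HoxD genes 0.0908%. By position within the clusters, 10 of the 12 genes of paralog groups 1 to 4 reached 10 counts and took 91.4% of the counts. In groups 5 to 8 these were 6 of 11 genes and 8.53%. In groups 9 to 13 they were 1 of 16 genes and 0.093%, and 9 of the 16 had no count at all. Without library 3 of the E12.5 controls, HoxA genes took 94.9%, HoxB genes 4.67% (5 genes with 10 counts) and HoxC genes 0.361% (1 gene), and paralog groups 5 to 8 took 4.55% (3 genes). The one posterior gene, *Hoxa9*, had 20 counts in library 2 of the E14.5 PLET1+ cKO and none elsewhere. The 2 anterior genes without a count were *Hoxd1* and *Hoxd4*. Per kilobase of exon, the mean level over the 23 libraries was 17.6 CPM for *Hoxa2*, 0.79 CPM for *Hoxa4*, 0.675 CPM for *Hoxa7* and 0.45 CPM for *Hoxa3*. Over exon bases of no other gene it was 0.94 CPM for *Hoxa4* and 0.617 CPM for *Hoxa3*. By median CPM, not divided by length, *Hoxa3* (1.82) lay above *Hoxa4* (0.109). They had at least 10 counts in 22 and 9 libraries, and 46% of the *Hoxa4* counts came from NICD library 3. *Hoxa2* had the highest level per kilobase in 21 of the 23 libraries. The exceptions were NICD libraries 4 and 5, and *Hoxb4* was highest in the latter.

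**Figure D1:**
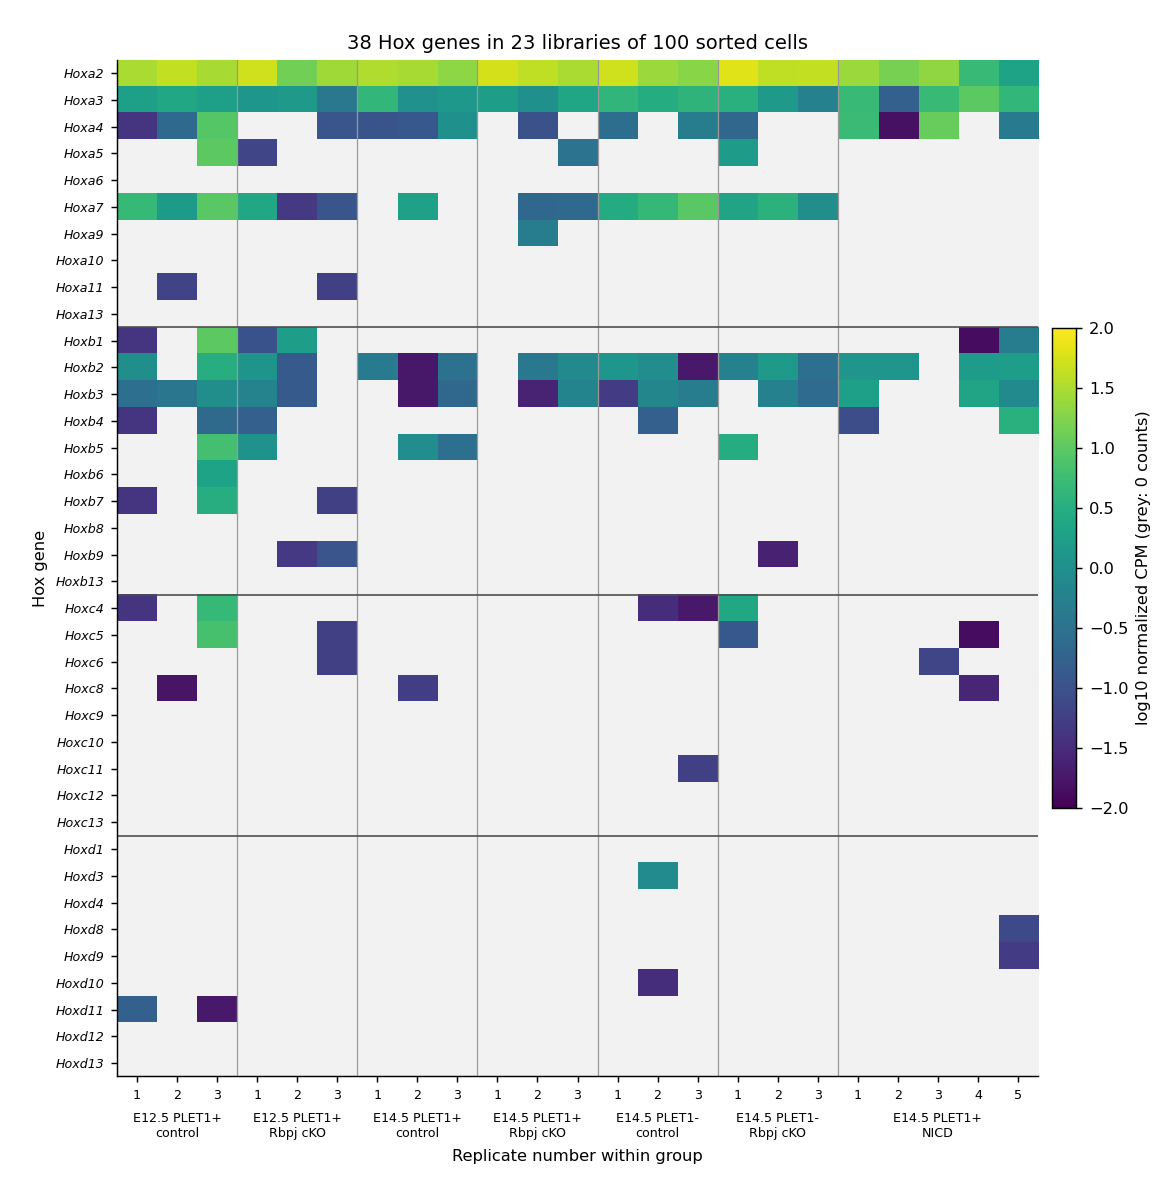
Normalized expression of 38 Hox genes (rows, in cluster order) in the 23 libraries (columns, grouped), on a log10 CPM scale from dark to yellow, with grey for 0 counts. The *Hoxa2* row is filled in every library, most of HoxC and HoxD is grey, and *Hoxb6* is filled in library 3 of the E12.5 controls alone.

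A gene was taken as expressed in a group where its median over the libraries was at least 1 CPM. By this measure 4 genes, *Hoxa2*, *Hoxa3* and *Hoxa7* among them, were expressed in E12.5 controls, in E14.5 PLET1- controls and in E14.5 PLET1- cKO cells. In E12.5 cKO and E14.5 PLET1+ cKO cells they were 3, *Hoxa2* and *Hoxa3* among them, and in E14.5 PLET1+ controls 2 (*Hoxa2* and *Hoxa3*). NICD cells had 4, with *Hoxb2* in the place of *Hoxa7*. At a median of 5 CPM, *Hoxa2* was the only expressed Hox gene in each of the 7 groups.

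Summed over all Hox genes, the level (mean ± SD, with n = 5 for NICD and n = 3 for every other group) was 65.8 ± 31.8 CPM for E12.5 controls and 37 ± 21.9 CPM for the E12.5 cKO. The E12.5 control mean rests in part on library 3, which had 102.4 CPM against 44.68 and 50.38 CPM in libraries 1 and 2. PLET1+ cells of E14.5 gave 32.3 ± 7.65 CPM for controls, 47.6 ± 9.31 CPM for the cKO and 29.3 ± 13.7 CPM for NICD. PLET1- cells gave 46.7 ± 16.7 CPM for controls and 59.9 ± 18.2 CPM for the cKO. Control and cKO ranges overlapped at each stage and PLET1 class, while all 3 E14.5 PLET1+ controls (23.9 to 38.9 CPM) lay below all 3 E12.5 controls (44.7 to 102 CPM). The share of *Hoxa2* in the Hox counts of a library ran from 14.3% in NICD library 5 to 97% in library 1 of the E14.5 PLET1+ cKO.

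**Figure D2:**
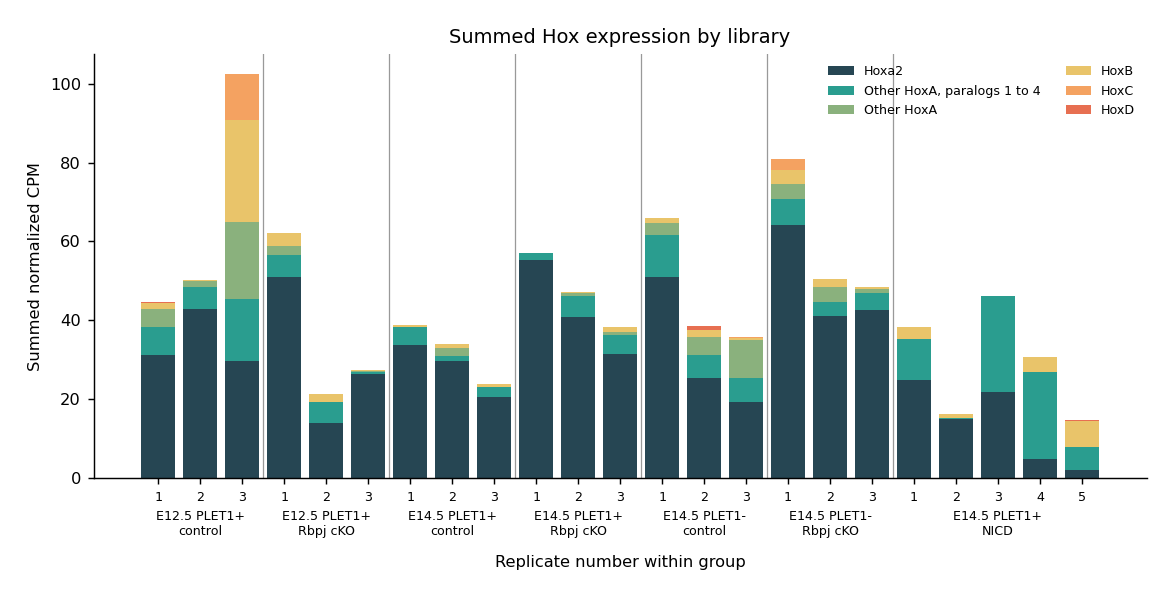
Summed normalized CPM of the Hox genes in each library, split into *Hoxa2*, the other HoxA genes of paralog groups 1 to 4, the remaining HoxA genes, HoxB, HoxC and HoxD (stacked bars, libraries grouped along the x axis). *Hoxa2* makes up most of each bar except those of library 3 of the E12.5 controls (29.1%) and NICD libraries 3, 4 and 5 (47.6%, 16.3% and 14.3%). The tallest bar, 102.4 CPM, is library 3 of the E12.5 controls, with its HoxB and HoxC parts.

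*Hoxa2*, a selector gene of the second pharyngeal arch and hindbrain, lies on chromosome 6 from 52162417 to 52164831 of GRCm38. It had 31.2, 42.8 and 29.8 CPM in libraries 1, 2 and 3 of the E12.5 controls and 51, 14 and 26.5 CPM in the E12.5 cKO. Its E14.5 libraries had 33.8, 29.8 and 20.7 CPM (PLET1+ control), 55.3, 41.0 and 31.6 CPM (PLET1+ cKO), 51.1, 25.4 and 19.3 CPM (PLET1- control) and 64.1, 41.1 and 42.6 CPM (PLET1- cKO). The 5 NICD libraries had 24.9, 15, 22, 5.01 and 2.09 CPM. Outside NICD the gene stayed between 14 and 64.1 CPM in 18 libraries, and the groups overlapped in every comparison between control and cKO. Within batches, the E14.5 PLET1+ cKO lay above control, at 55.3 and 41.0 against 33.8 and 29.8 CPM in batch 3 and 31.6 against 20.7 CPM in batch 4. PLET1- libraries overlapped in batch 3 (64.1 and 41.1 against 51.1 and 25.4 CPM), and in batch 4 they had 42.6 against 19.3 CPM. NICD libraries 4 and 5 were the lowest of all, and the highest library was 30.7-fold above the lowest. Between NICD and E14.5 PLET1+ controls the log2 fold change was −1 ± 0.59 (estimate ± standard error, SE), with an adjusted p of 0.44 by the quasi-likelihood method of edgeR, adjusted over all genes after Benjamini and Hochberg. Each SE of a log2 fold change was computed back from the edgeR estimate and its p-value, and is rough where a group is at 0. Against E12.5 controls the log2 fold change was −1.32 ± 0.59 SE (edgeR adjusted p = 0.259), and there all 5 NICD libraries lay below all 3 controls. Between cKO and control it was −0.18 ± 0.67 SE at E12.5, 0.60 ± 0.67 SE in E14.5 PLET1+ and 0.69 ± 0.68 SE in PLET1- cells, and edgeR's adjusted p was 1 for all 3. None of these comparisons of *Hoxa2* was called by edgeR.

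*Hoxa3* (chromosome 6, 52169062 to 52213336), the gene required for the thymus and parathyroid, was low but widespread, with counts in all 23 libraries. It had 1.79, 2.45 and 1.82 CPM in E12.5 controls and 1.26, 1.46 and 0.396 CPM in E12.5 cKO. Its E14.5 libraries had 4.44, 1.07 and 1.35 CPM (PLET1+ control), 1.71, 1.01 and 2.25 CPM (PLET1+ cKO), 4.34, 3.03 and 3.99 CPM (PLET1- control) and 3.49, 1.42 and 0.571 CPM (PLET1- cKO). NICD libraries had 4.96, 0.168, 4.9, 9.89 and 4.44 CPM. All 3 E12.5 cKO libraries lay below all 3 E12.5 controls, by −1.14 ± 1.15 SE on the log2 scale (edgeR adjusted p = 1). NICD held both the highest and the lowest library, and its log2 fold change against E14.5 PLET1+ controls was 1.14 ± 1.03 SE (edgeR adjusted p = 0.672). Only 72.9% of the exon bases of *Hoxa3* belong to no other gene, since *Hoxaas2*, *Hoxaas3* and other transcripts overlap it, and unstranded counting gave no count to the shared bases.

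*Hoxa7* (chromosome 6, 52214491 to 52221854), a trunk-level gene, was the single Hox gene that edgeR called in any comparison. It had 4.70, 1.49 and 9.59 CPM in E12.5 controls, 2.38, 0.0457 and 0.113 CPM in E12.5 cKO, and 0 counts in all 5 NICD libraries. The values of its E14.5 libraries were 0, 1.94 and 0 CPM (PLET1+ control), 0, 0.221 and 0.237 CPM (PLET1+ cKO), 2.89, 4.55 and 9.62 CPM (PLET1- control) and 2.15, 3.78 and 0.964 CPM (PLET1- cKO). At least 10 counts were found in 12 of the 18 libraries outside NICD and 3 of the 18 had none. *Hoxa7* was lower in NICD than in E12.5 controls, by −10.91 ± 2.43 SE on the log2 scale (edgeR adjusted p = 0.0275). Since every NICD library was at 0, the mean of the E12.5 controls (5.26 CPM) was set against a floor of 3 counts per library (0.0378 to 0.0458 CPM). By means, NICD was at least 125-fold lower, and at least 73.6-fold lower without E12.5 control 3. These folds take no account of the spread of the controls (1.49 to 9.59 CPM). The call was 1 among 10 Hox genes tested, against 2.81% of all genes called in that comparison (1.17% called lower). The adjusted p was 0.0664 without E12.5 control 1, 0.0895 without E12.5 control 3, 0.0501 without NICD library 3 and 0.092 in a fit of only these 2 groups. Stage, laboratory and batch differ between these groups together with the genotype and cannot be told apart. Against E14.5 PLET1+ controls the mean of *Hoxa7* was at least 15.4-fold lower in NICD (log2 fold change −7.8 ± 2.15 SE, edgeR unadjusted p = 0.00283, adjusted p = 0.115), but 2 of the 3 controls were at 0 as well. Without E14.5 PLET1+ control 2, the one control with counts (107), the fitted log2 fold change was 0.13. PLET1- controls lay above PLET1+ controls in all libraries (log2 fold change 3.29 ± 2.44 SE, edgeR adjusted p = 1), with 2.89 and 4.55 against 0 and 1.94 CPM in batch 3 and 9.62 against 0 CPM in batch 4.

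**Figure D3:**
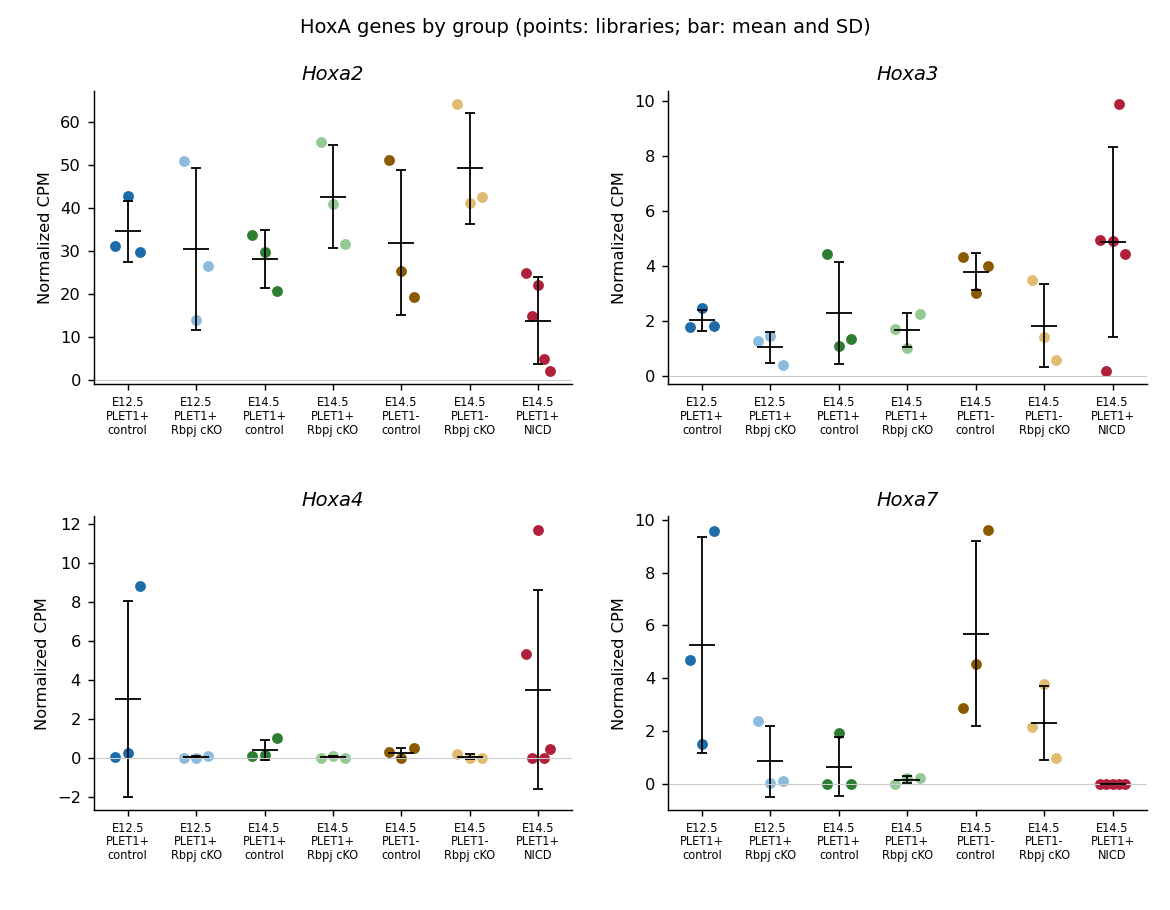
Normalized CPM of *Hoxa2*, *Hoxa3*, *Hoxa4* and *Hoxa7* by group (points are libraries, bars the mean and SD). *Hoxa2* falls to 2.09 CPM in 1 NICD library, *Hoxa4* reaches 11.7 CPM in another, and *Hoxa7* is at 0 in all 5 NICD libraries.

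*Hoxa4*, another anterior HoxA gene, ranged from 0 to 11.7 CPM, and the NICD libraries alone covered that range. It had 0.0416, 0.229 and 8.80 CPM in E12.5 controls, 0, 0 and 0.113 CPM in E12.5 cKO and 5.32, 0.0153, 11.7, 0 and 0.441 CPM in NICD. Its E14.5 libraries had 0.109, 0.127 and 1.02 CPM (PLET1+ control), 0, 0.0983 and 0 CPM (PLET1+ cKO), 0.281, 0 and 0.494 CPM (PLET1- control) and 0.21, 0 and 0 CPM (PLET1- cKO). The 3 PLET1+ cKO libraries lay just below the 3 PLET1+ controls (log2 fold change −3.11 ± 2.77 SE, edgeR adjusted p = 1), at 0 to 4 against 3 to 43 counts. *Hoxa5* was at 0 in 19 libraries, and had 9.93 CPM (535 counts) in library 3 of the E12.5 controls, 0.068 CPM in E12.5 cKO 1, 0.332 CPM in E14.5 PLET1+ cKO 3 and 1.58 CPM in E14.5 PLET1- cKO 1. It was thus a gene of single libraries.

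Among HoxB genes, *Hoxb2* and *Hoxb3*, anterior genes of the hindbrain and arches, were the most widespread. *Hoxb2* had 0.998, 0 and 3.06 CPM in E12.5 controls, 1.16, 0.137 and 0 CPM in E12.5 cKO, and 1.23, 1.21, 0, 1.56 and 1.69 CPM in NICD. The values of its E14.5 libraries were 0.437, 0.0182 and 0.309 CPM (PLET1+ control), 0, 0.393 and 0.806 CPM (PLET1+ cKO), 1.25, 0.91 and 0.019 CPM (PLET1- control) and 0.568, 1.42 and 0.286 CPM (PLET1- cKO). Every pair of groups overlapped that was compared. *Hoxb3* had 0.291, 0.376 and 0.946 CPM in E12.5 controls, 0.612, 0.137 and 0 CPM in E12.5 cKO, and 1.78, 0, 0, 2.17 and 0.807 CPM in NICD. Its E14.5 libraries had 0, 0.0182 and 0.214 CPM (PLET1+ control), 0, 0.0246 and 0.64 CPM (PLET1+ cKO), 0.0511, 0.674 and 0.475 CPM (PLET1- control) and 0, 0.567 and 0.25 CPM (PLET1- cKO). All E14.5 PLET1+ controls lay below all E12.5 controls (log2 fold change −3.95 ± 2.6 SE, edgeR adjusted p = 0.533). The antisense transcript *Hoxb3os* covers much of this gene, and 47.1% of the exon bases of *Hoxb3* belong to no other gene.

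*Hoxb1*, a hindbrain gene, had 0.0416, 0 and 9.97 CPM in E12.5 controls, 0.102, 1.69 and 0 CPM in E12.5 cKO, and 0, 0, 0, 0.0137 and 0.504 CPM in NICD. It had 0 counts in all 12 other E14.5 libraries. *Hoxb5* had 6.49 CPM in E12.5 control 3, 1.09 CPM in E12.5 cKO 1, 0, 0.926 and 0.285 CPM in E14.5 PLET1+ controls and 3.03 CPM in E14.5 PLET1- cKO 1, and was at 0 in the other libraries, all 5 NICD libraries included. Against E14.5 PLET1+ controls the mean of *Hoxb5* was at least 9.59-fold lower in NICD (log2 fold change −7.26 ± 3 SE, edgeR unadjusted p = 0.0369, adjusted p = 0.281), and at least 3.38-fold lower without E14.5 PLET1+ control 2. In the test of whether the effect of the cKO differed between PLET1- and PLET1+ cells its unadjusted p was 0.0281, and edgeR's adjusted p was 1. The gene had counts in 5 libraries only. *Hoxa5*, *Hoxa7* and *Hoxb5* were the 3 Hox genes that were at 0 in all NICD libraries and had at least 10 counts in 3 or more of the others. They had counts in 4, 15 and 5 libraries, so only *Hoxa7* was widespread outside NICD. The share of all genes with this pattern was not taken. *Hoxb4* had 279 counts (3.52 CPM) in NICD library 5 and 13 in E12.5 control 3, and fewer than 10 elsewhere.

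HoxC and HoxD genes were scarcely found. *Hoxc4* had 4.75 CPM (256 counts) in E12.5 control 3 and 2.46 CPM (117 counts) in E14.5 PLET1- cKO 1, and at most 1 count elsewhere. *Hoxc5* had 6.88 CPM (371 counts) in E12.5 control 3 and at most 6 counts elsewhere. *Hoxd3* had 25 counts in E14.5 PLET1- control 2 and none elsewhere. The other HoxC and HoxD genes never passed 6 counts, and 8 of the 18 genes of these clusters had none in any library.

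Library 3 of the E12.5 controls, the one with the high parathyroid sum, also had the most Hox genes. It held at least 10 counts for 15 Hox genes, against 1 to 9 in the other 22 libraries, and 8 Hox genes were highest there. *Hoxb6* (113 counts), *Hoxb7* (165 counts) and *Hoxc5* reached 10 counts in this library only. Of the counts on *Hoxa5* 85.5%, of those on *Hoxb1* 86.8% and of those on *Hoxb5* 59.4% came from it, and without it the mean over libraries fell from 0.518 to 0.0899 CPM for *Hoxa5*, from 0.536 to 0.107 CPM for *Hoxb1* and from 0.514 to 0.242 CPM for *Hoxb5*. The genes found there belong to paralog groups 1 to 7, and no posterior gene was among them. *Crabp1*, which binds retinoic acid, had 113 CPM there and at most 17.3 CPM elsewhere. Library 3 of the E12.5 cKO, from the same batch, had 1 Hox gene with at least 10 counts and a Hox sum of 27.49 CPM. Mesenchymal markers, summed over 9 genes, were at 71.7 CPM in E12.5 control 3 and at 2.37 to 1180 CPM elsewhere. The part of these other cell types in the Hox counts was not tested.

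Of the 39 Hox genes 10 passed the filter on low counts and were tested in each of 10 comparisons. NICD against E14.5 PLET1+ controls asks what added Notch activity changes at matched stage. No Hox gene was called by edgeR, against 0.684% of all genes, while 3 had an unadjusted p under 0.05 (*Hoxa7* and *Hoxb5* among them, against 15.7% of all genes), DESeq2 called these 3 and limma-voom 0. Shares of all genes were taken for edgeR alone, so the counts called by DESeq2 and limma-voom, here and below, have none beside them. The median log2 fold change of the 10 genes was 1.63 and that of all genes 0.04. No Hox gene had libraries that did not overlap, against 11.7% of all genes.

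Between *Rbpj* cKO and control, which asks what loss of Notch signaling changes, edgeR called no Hox gene at E12.5 (0.0261% of all genes), in PLET1+ cells of E14.5 (0% of all genes) or in PLET1- cells (0% of all genes). At an unadjusted p under 0.05 the counts were 0, 0 and 0 (3.79%, 2.06% and 2.34% of all genes). DESeq2 called 0, 1 (*Hoxb5*) and 2 (*Hoxa5* and *Hoxb5*), and limma-voom 0 in each. In the PLET1- comparison both genes had counts in cKO library 1 alone (75 and 144 counts). The median log2 fold change of the Hox genes was −1.16 at E12.5, 0.3 in PLET1+ and −0.04 in PLET1- cells, against 0, −0.02 and 0.02 for all genes. Libraries did not overlap for 1 Hox gene at E12.5 (*Hoxa3*, lower, 5.98% of all genes), 1 in PLET1+ cells (*Hoxa4*, lower, 7.63% of all genes) and 0 in PLET1- cells (5.82% of all genes). The standard error, computed back from the p-value, was 0.67 or 0.68 for *Hoxa2* but 2.26 to 2.51 for *Hoxa7*, so differences in the latter were less precisely estimated. Whether the cKO effect differed between stages or between PLET1 classes was tested as well, and no Hox gene was called by edgeR in either test (0% of all genes in both). Unadjusted p-values were under 0.05 for 0 and 1 (*Hoxb5*) Hox genes (3.15% and 2.62% of all genes), and DESeq2 called 1 (*Hoxb5*) in each and limma-voom 0.

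From E12.5 to E14.5, in PLET1+ controls, edgeR called no Hox gene (0.967% of all genes), with an unadjusted p under 0.05 for 1 (12.9% of all genes). DESeq2 called 2, *Hoxa5* among them, and limma-voom 0. Of the 10 genes 8 had a fitted change below 0, with a median log2 fold change of −2.62, against 0.19 for all genes, and 2, *Hoxb3* among them, did not overlap, against 20.3% of all genes. Part of this rests on E12.5 control 3. In these 2 groups *Hoxa5* had counts in that library alone (9.93 CPM). *Hoxb1* had 9.97 CPM there, at most 0.0416 CPM in the other E12.5 controls and 0 in E14.5 PLET1+ controls. Summed parathyroid markers also differed, at 1400 to 9090 CPM in E12.5 controls and 2.11 to 400 CPM in E14.5 PLET1+ controls. Their part in these changes was not tested. Between PLET1- and PLET1+ controls at E14.5 edgeR called none (0% of all genes), with an unadjusted p under 0.05 for 1 (2.87% of all genes), DESeq2 called 1 (*Hoxb5*) and limma-voom 0. Libraries did not overlap for 2 Hox genes, *Hoxa7* among them, against 9.69% of all genes.

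NICD at E14.5 against E12.5 controls, which sets NICD cells beside the earlier progenitors, gave the one call of edgeR, *Hoxa7*, while DESeq2 called 3 (*Hoxa5*, *Hoxa7* and *Hoxb5*). Among these libraries *Hoxa5* and *Hoxb5* had counts in E12.5 control 3 alone (9.93 and 6.49 CPM). In that comparison *Hoxa2* had an unadjusted p of 0.038 (17.5% of all genes were under 0.05) and did not overlap either, which makes 2 of 10 Hox genes against 10.5% of all genes, and limma-voom called *Hoxa2* and *Hoxa7*. The test of any difference among the 7 groups called no Hox gene by edgeR (3.93% of all genes), with 3 unadjusted p-values under 0.05 (19.5% of all genes), namely 0.0117 for *Hoxa7*, 0.0457 for *Hoxa4* and 0.0497 for *Hoxb1*, and *Hoxa7* was called by both DESeq2 and limma-voom. These comparisons share control libraries with each other.

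**Figure D4:**
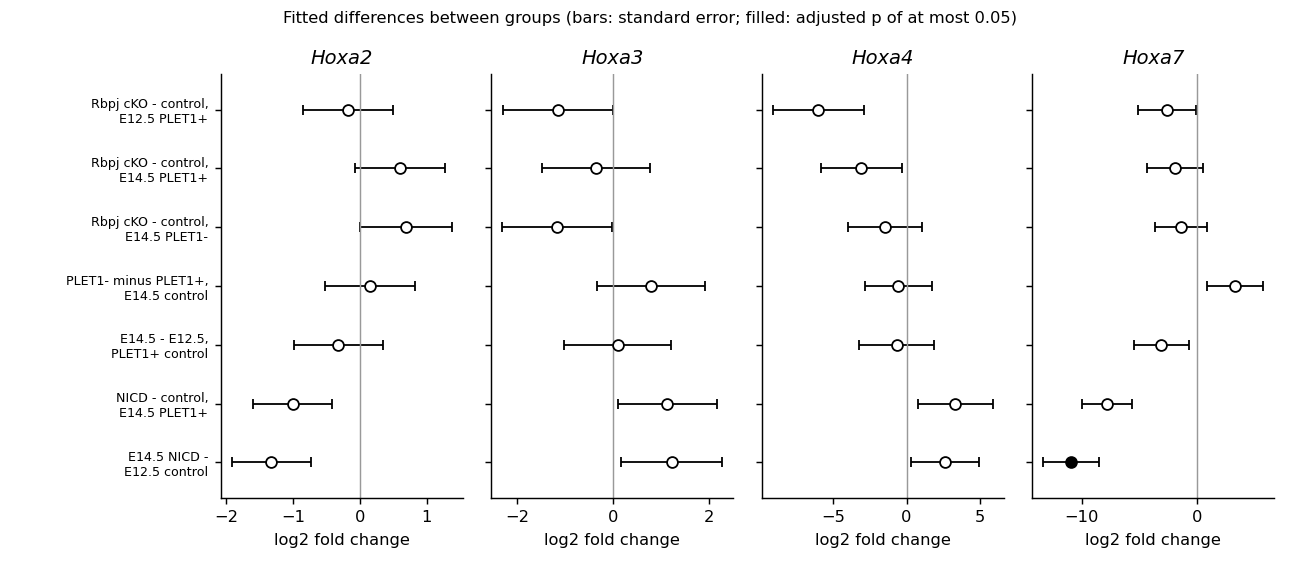
Fitted log2 fold changes of *Hoxa2*, *Hoxa3*, *Hoxa4* and *Hoxa7* (x axes, which differ between panels) in the 7 comparisons between pairs of groups (y axis). Bars are standard errors computed back from the p-values, and a filled point marks an adjusted p of at most 0.05. The filled point is *Hoxa7* in NICD against E12.5 controls, at −10.91. The intervals of *Hoxa2* are the narrowest.

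Transcripts other than the coding genes were also counted from the Hox clusters. Of 43 non-coding genes that lie within them 19 had a count and 6 had at least 10 counts in every library. These were *Gm15050* (mean 21.1 CPM), *Hoxaas3* (12.2 CPM), *Hotairm1* (8.68 CPM), *Gm27477* (5.29 CPM), *Hoxb3os* (4.04 CPM) and *Gm11539* (1.49 CPM), all but the last 2 in the HoxA cluster. Those of HoxA lie on the anterior side of the cluster, none beyond *Hoxa7*, *Hoxb3os* overlaps *Hoxb3*, and *Gm11539* is a processed pseudogene. Of the annotated microRNA genes of the clusters, 6 (*Mir10a*, *Mir10b*, *Mir196a-1*, *Mir196a-2*, *Mir196b* and *Mir615*) had 0 counts and *Gm44463*, also annotated as a microRNA, had 1, in a protocol that primes on poly(A) tails. All exon bases of *Mir196b* are shared with *Hoxa9*, so the counting rule gave it none. Of the 10 non-coding genes tested none was called in any comparison by edgeR. *Hoxaas2*, chosen after its values were seen, had 0.533, 0.58, 0, 0 and 1.15 CPM in NICD, below all 18 other libraries, the lowest of which had 1.83 CPM. In E14.5 PLET1+ controls it had 8.91, 4.58 and 4.89 CPM, and the log2 fold change was −3.76 ± 1.23 SE (unadjusted p = 0.00693, edgeR adjusted p = 0.156). *Hoxb3os*, also chosen after its values were seen, had 8.71, 6.82, 4.15, 9.29 and 6.47 CPM in NICD and 3.06, 1.16 and 1.45 CPM in E14.5 PLET1+ controls (log2 fold change 1.93 ± 0.76 SE, unadjusted p = 0.0215, edgeR adjusted p = 0.23). It was as high as 14 CPM in E12.5 cKO 3. These were the 2 of 10 non-coding genes whose libraries did not overlap between NICD and E14.5 PLET1+ controls, against 11.7% of all genes. *Hoxaas2* shares exon bases with *Hoxa3*, and *Hoxb3os* with *Hoxb2* and *Hoxb3*.

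**Figure D5:**
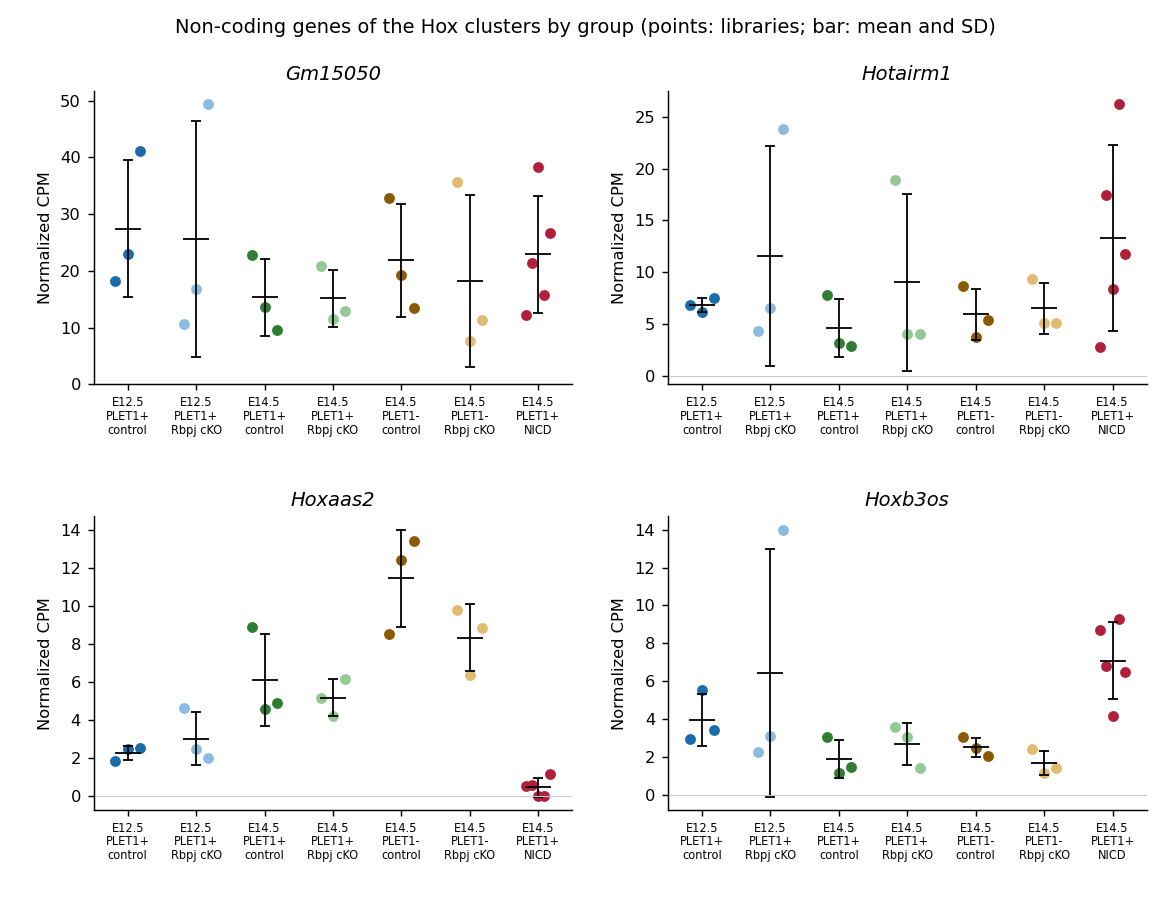
Normalized CPM of the non-coding genes *Gm15050*, *Hotairm1*, *Hoxaas2* and *Hoxb3os* by group (points are libraries, bars the mean and SD). *Hoxaas2* is at or below 1.15 CPM in all 5 NICD libraries and at or above 1.83 CPM in the other 18.

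The partners and regulators of Hox genes were examined as lists, with levels as mean ± SD (n = 3 for controls, n = 5 for NICD). All 9 PBX, MEIS and PKNOX cofactors passed the filter. *Meis2* stood at 251 ± 85.5 CPM in E12.5 controls and at 114 ± 39.9 CPM in NICD. It was the 1 of 9 called in any comparison, lower in NICD than in E12.5 controls by −1.09 ± 0.26 SE on the log2 scale (edgeR adjusted p = 0.0303), where 2.81% of all genes were called. The median log2 fold change of the 9 was −0.46 there and −0.15 for NICD against E14.5 PLET1+ controls, against 0.17 and 0.04 for all genes.

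Of 24 Polycomb and Trithorax genes 23 were tested and none was called between 2 groups by edgeR, while *Ezh2* and *Jarid2*, of the Polycomb complex that methylates histone H3, were called among the 7 groups (edgeR adjusted p = 0.0322 and 0.0112), as were 3.93% of all genes. *Ezh2* was at 138 ± 21.5 CPM in E12.5 controls, 53.6 ± 13.1 CPM in E14.5 PLET1+ controls and 108 ± 31.6 CPM in NICD (mean ± SD, n as above). *Jarid2* was at 81.5 ± 13.4, 54.9 ± 3.5 and 120 ± 30.5 CPM in the same groups. From E12.5 to E14.5 the median of the list was −0.61 on the log2 scale, with 19 of 23 genes below 0, against a median of 0.19 for all genes. For NICD against E14.5 PLET1+ controls it was 0.39, against 0.04.

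Of 18 upstream inputs, the retinoic acid pathway and Cdx genes among them, 16 were tested and 1 was called, in NICD against E12.5 controls (2.81% of all genes). *Rarb*, a retinoic acid receptor that retinoic acid itself induces, had 0, 0.196 and 0 CPM in E12.5 controls and 21.6, 24.6, 30.8, 19.2 and 25.3 CPM in NICD (log2 fold change 8.93 ± 2.11 SE, edgeR adjusted p = 0.0275). E14.5 PLET1+ controls had 8.22, 5.54 and 6.43 CPM, below every NICD library, but that difference was not called (log2 fold change 1.72 ± 1.46 SE, edgeR adjusted p = 0.638). Of 14 pharyngeal pouch regulators 12 were tested, and *Gcm2*, the parathyroid regulator, was the 1 called in NICD against E12.5 controls (2.81% of all genes; lower, edgeR adjusted p = 0.0261), at 62.3, 5.07 and 63.8 CPM in the controls and 0 to 0.0458 CPM in NICD. Among the 7 groups 2 of the 12 were called (3.93% of all genes), *Six4* one of them (edgeR adjusted p = 0.0291). Of 7 genes that flank the clusters 5 were tested and none was called. *Evx1* and *Evx2*, at the posterior ends, were at or near 0 (means of at most 0.011 and 0.0242 CPM in a group), and *Mtx2*, beyond the HoxD cluster, had group means of 229 to 323 CPM.

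Markers of other cell types were also counted. Summed mesenchymal markers were at 2.37 to 24.4 CPM in E14.5 PLET1+ controls, 5.59 to 1180 CPM in E14.5 PLET1- controls and 23.2 to 426 CPM in NICD. Of the 9 markers, 9 had a fitted change above 0 for PLET1- against PLET1+ controls (median log2 fold change 6.28) and 8 for NICD against E14.5 PLET1+ controls (median 5.76). None of them was called by edgeR (0% and 0.684% of all genes), and 5 had an unadjusted edgeR p under 0.05 in each (2.87% and 15.7% of all genes). For NICD against E12.5 controls 7 of the 9 markers were above 0 (median 3.05), and 1 was called higher (2.81% of all genes were called). Their part in the values of *Hoxa7* and the other Hox genes was not tested. Endothelial markers reached 20.5 CPM, haematopoietic markers 58.8 CPM, erythroid markers 5.86 CPM and neural crest and glial markers 7.56 CPM, with the neural crest gene *Foxd3* at 0 in 6 of the 7 groups. Parathyroid markers were at 0.273 to 10.1 CPM in NICD and at 1400 to 9090 CPM in E12.5 controls, the 2 groups between which *Hoxa7* was called, and their part in that difference was not tested.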

How the data were processed

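RNA was measured in 23 libraries of 100 sorted TECs, prepared by Smart-seq2 and sequenced with paired reads of 75 bp. Per the labels and the study's methods, the authors trimmed reads with Trimmomatic 0.32, aligned them with STAR 2.5.1a to GRCm38 and counted them per gene with featureCounts (1.5.1 in the processing notes, 1.5.0-p3 in the file header) on GENCODE M12, without strand and without reads that overlap several genes. The deposited values are raw counts per gene, with a symbol found for 98.4% of identifiers. Reads on exon bases that 2 genes share are therefore lost, which touches 16 Hox genes. Smart-seq2 reads carry no molecular identifiers, so the floors cover counting error only.

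Counts were taken as deposited. Libraries were grouped by their labels. One edgeR 4.0.16 quasi-likelihood fit (TMM factors, filterByExpr, 19140 genes) had 7 group means, a batch term for E12.5 and another for the E14.5 *Rbpj* cross. P-values were two-sided and adjusted by Benjamini-Hochberg over all 19140 genes in each of 10 comparisons, and genes at 0.05 or below were called. The fit was tested on simulated data. A floor of 3 counts stands for libraries at 0 in a fold. Such a fold sets the mean of the other group against the floor and takes no account of the spread within that group. Values in every library are given for the 12 Hox genes with the highest mean CPM, which include the called one, and the others by range. Results for some genes, and a planned scaling to housekeeping genes, are not reported here. Members, lists and tests were chosen with earlier results of these data known.

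Alternatives were DESeq2 1.42.0, limma-voom (limma 3.58.1, the study's test), RLE factors, no filter, a stricter filter (10 counts in 3 libraries, mean of 50), omission of batch terms, blocking on replicate number, fitting just the compared groups, other limits for an expressed gene and omission of each library. Shares of Hox counts and fold bounds without a single library were added after seeing the data. Same-numbered libraries of cKO and control, each less its group mean, correlated over genes at −0.02 to 0.01 at E12.5 and at 0.08 to 0.24 at E14.5. Other-numbered libraries of E14.5 averaged −0.08 (PLET1+) and −0.06 (PLET1-). Same-numbered PLET1- and PLET1+ controls correlated at 0.06 to 0.15, and others averaged −0.05. Since each library is taken less its group mean, the other-numbered averages largely follow from the same-numbered values. They are no separate evidence on pairing. The numbers were not taken as pairs in the main fit, so any weak pairing at E14.5 was left out of it. Software was R 4.3.3 and Python 3.11.15.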

Additional observations from a re-analysis of the deposited data

Results flagged for a closer look

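Only the NICD group, with 5 libraries, was large enough to be examined for a library far from the others. Chance flags about 1 in 20 such groups where values are normally spread, a rate that need not hold for genes at or near 0. *Hoxb4*, which was not among the 10 genes tested, is not listed here, although it had 3.52 CPM in NICD library 5 and 0 in 3 NICD libraries. *Hoxb1* was flagged because NICD library 5 had 0.504 CPM (40 counts) and the nearest of the others 0.0137 CPM. *Hoxb2* was flagged because NICD library 3 had 0 counts and the nearest of the others 1.21 CPM.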

How the results depend on the processing

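Of 214 alternative values for the counts of called or expressed Hox genes, 187 stayed within 1.5 times the count reported. DESeq2 called 3 Hox genes for NICD against E14.5 PLET1+ controls, 1 and 2 for the cKO in E14.5 PLET1+ and PLET1- cells, 2 for E14.5 against E12.5 controls, 1 for PLET1- against PLET1+ controls, 3 for NICD against E12.5 controls, 1 for each interaction and 1 among the 7 groups. limma-voom called 2 for NICD against E12.5 controls and 1 among the groups. Without a filter 1 was called for NICD against E14.5 PLET1+ controls and 3 among the groups. A fit of only the groups compared called 0 for NICD against E12.5 controls. With one library left out, that count ran from 0 to 1, as did the count among the groups (1 without E14.5 PLET1+ control 2, 0 otherwise), and the log2 fold change of *Hoxa7* for NICD against E14.5 PLET1+ controls ran from −8.61 to 0.13. At a limit of 5 CPM, 1 Hox gene was expressed in each of the 7 groups. In E12.5 controls, leaving out a library gave 4 to 13 expressed genes (13 without library 1 or 2, since library 3 then set the median). The cause of these changes was not tested, beyond the libraries named.

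With the replicate number as a block, 1 Hox gene was called for NICD against E12.5 controls and 0 in every other comparison, so the block changed no call. Among cKO and control libraries, 2, 3 and 1 of the libraries of E14.5 PLET1+, E14.5 PLET1- and E12.5 correlated best with their own number. Between PLET1- and PLET1+ controls of E14.5 these were 3. Of the 39 Hox genes 10 had enough counts to be tested, and a library at 0 counts allows up to 3.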
